A study of Homo sapiens with 2 samples.

Results

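The 39 HOX genes of the human genome were measured in single cells of CHLA9 and TC71, established lines of Ewing sarcoma. They were chosen by name, as every symbol of the form HOX, a cluster letter from A to D and a number, and made up 39 of the 33538 genes counted: 11 of the HOXA cluster on chromosome 7, 10 of HOXB on chromosome 17, 9 of HOXC on chromosome 12 and 9 of HOXD on chromosome 2. Ewing sarcoma is a tumour of bone and soft tissue driven by a fusion of a FET gene with an ETS gene, most often EWSR1-FLI1, and the study sequenced single cells to see whether developmental expression programs differ from cell to cell. CHLA9 was kept in IMDM with 20% serum, insulin, transferrin and selenite, and TC71 in RPMI-1640 with 10% serum, both untreated. Each line gave 1 library of a droplet-based 3' kit, in which every captured RNA molecule is counted as 1 unique molecular identifier (UMI). The paper states that the CHLA9 library was sequenced again on another instrument, and does not state this for TC71. Line, medium, library and sequencing run therefore cannot be told apart.

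HOX genes encode homeodomain transcription factors that set the identity of cells along the head to tail axis and along the limbs of the embryo. Their order along each cluster matches the order in which they act, from anterior genes with low numbers to posterior genes with high numbers, and genes with the same number in different clusters, called paralogs, are close relatives. Posterior HOXD genes, and HOXD13 in particular, are known to be expressed in Ewing sarcoma, as in the end of the trunk and the hands and feet of the embryo.

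To compare like cells, a barcode was kept if it held 5000 UMIs or more from 2000 genes or more, with mitochondrial genes giving no more than 15% of the UMIs. In CHLA9 4524 of 5077 barcodes passed, with a median of 34656 UMIs per cell, and in TC71 1729 of 8468 passed, with a median of 33370. The other TC71 barcodes were mostly shallow, with 5869 under 5000 UMIs. Levels are the UMIs of a gene summed over the kept cells, per 1000000 UMIs of all genes (CPM), with no scaling by gene length because a molecule is counted once whatever its length. Intervals are exact 95% Poisson intervals for levels, exact conditional intervals for ratios and Clopper-Pearson intervals for shares. They cover counting error only, since there is 1 library per line, and no test between the lines was made. All 8 Ewing sarcoma markers checked were at or above 1 CPM in both lines, beside 37.1% of all genes in CHLA9 and 37.6% in TC71. CD99 was at 1141 CPM in CHLA9 and 402 CPM in TC71. Of the 8, 2 were at least 2-fold higher in CHLA9 and 3 in TC71, beside 19.8% and 13.9% of all genes. Of 10 markers of other cell types, 5 were at or above 1 CPM in each line, beside the same 37.1% and 37.6%. Of the 6 at or above 1 CPM in at least 1 line, 4 were at least 2-fold higher in CHLA9 and 1 in TC71, beside the same 19.8% and 13.9%. The leukocyte gene PTPRC stood at 9 and 5 UMIs in all, the T cell gene CD3E at 0 in both, and the summed level of the 10 was 285 CPM in CHLA9, most of it the collagen gene COL1A2, and 24.3 CPM in TC71. Whether cells with collagen RNA differ in HOX genes was not tested.

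The posterior end of the HOXD cluster is the stretch from HOXD13 to HOXD10 on the plus strand of chromosome 2. The 250 bases ahead of the RefSeq start of each of its 4 genes are shown, since these genes lie side by side and yet differ widely in level. They are read on the plus strand of GRCh38.p14, at chr2:176092471-176092720 for HOXD13, chr2:176099545-176099794 for HOXD12, chr2:176107030-176107279 for HOXD11 and chr2:176116528-176116777 for HOXD10, and capitals mark CG dinucleotides.
HOXD13: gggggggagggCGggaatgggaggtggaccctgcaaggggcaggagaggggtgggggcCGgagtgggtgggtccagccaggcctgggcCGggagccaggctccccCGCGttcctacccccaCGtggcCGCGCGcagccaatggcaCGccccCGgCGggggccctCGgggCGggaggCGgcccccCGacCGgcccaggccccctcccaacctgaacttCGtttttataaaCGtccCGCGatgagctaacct
HOXD12: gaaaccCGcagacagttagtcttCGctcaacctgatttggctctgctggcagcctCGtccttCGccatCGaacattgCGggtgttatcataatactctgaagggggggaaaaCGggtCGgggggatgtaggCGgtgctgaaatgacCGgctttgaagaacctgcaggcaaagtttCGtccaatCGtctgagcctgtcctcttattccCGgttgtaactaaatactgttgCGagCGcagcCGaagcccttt
HOXD11: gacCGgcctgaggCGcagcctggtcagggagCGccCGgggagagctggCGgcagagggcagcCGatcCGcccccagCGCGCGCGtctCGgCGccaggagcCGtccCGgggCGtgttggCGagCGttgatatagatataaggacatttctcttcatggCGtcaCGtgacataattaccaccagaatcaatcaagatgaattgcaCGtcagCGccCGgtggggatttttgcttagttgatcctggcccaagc
HOXD10: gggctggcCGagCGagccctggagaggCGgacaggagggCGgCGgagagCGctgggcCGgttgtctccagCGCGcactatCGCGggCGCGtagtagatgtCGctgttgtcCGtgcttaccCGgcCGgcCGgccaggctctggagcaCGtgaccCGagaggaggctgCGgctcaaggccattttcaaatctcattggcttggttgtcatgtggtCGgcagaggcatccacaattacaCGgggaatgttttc
These windows held 21 CG dinucleotides for HOXD13, 16 for HOXD12, 23 for HOXD11 and 23 for HOXD10, against a median of 11 over 35116 promoter windows of the same length and a median of 19 over the 27 HOX windows held in the RefSeq table for 20 of the 39 genes. The letters TATAAA, searched on both strands with overlaps counted, were found 2 times ahead of HOXD13, once on each strand over shared letters, and in none of the windows of HOXD12, HOXD11 and HOXD10. Of all windows, 10.7% held them. The letters GGAAGGAA, a doubled GGAA as in the repeats that EWSR1-FLI1 is known to bind, were in none of the 4 windows and in 3.06% of all. A match of letters is a description of the window and not a site.

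HOXD13, a posterior gene known for the patterning of digits, was among the 3 highest HOX genes of both lines. It stood at 87.1 CPM (85.7 to 88.5) in CHLA9 and 46.5 CPM (44.7 to 48.3) in TC71. The interval of the difference excluded 0, at a log2 ratio of 0.91 (0.85 to 0.97). The gene lies at chr2:176092721-176095944 and shares no exon sequence with another HOX gene. HOXD12, the next gene, at chr2:176099795-176102489, gave 1 UMI in all of CHLA9 and 0 UMIs in TC71, at or below the floor of 3 UMIs, which is 0.0171 CPM in CHLA9 and 0.0514 CPM in TC71. It was thus not detectable at this depth between neighbours that were. HOXD11 came to 28.1 CPM (27.4 to 28.9) in CHLA9 and 20.8 CPM (19.7 to 22.0) in TC71, a log2 ratio of 0.43 (0.34 to 0.53). HOXD10 was 23.1 CPM (22.4 to 23.8) in CHLA9 and 23.7 CPM (22.5 to 25.02) in TC71, and the interval of its log2 ratio, -0.13 to 0.05, held 0. The annotated exons of these 2 genes overlap on the same strand, over 21.4% of the exon bases of HOXD11 and 18.2% of those of HOXD10, so part of their reads could belong to either.

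Summed over HOXD10 to HOXD13, the level was 138 CPM (137 to 140) in CHLA9 and 91.0 CPM (88.6 to 93.5) in TC71. The log2 ratio was 0.60 (0.56 to 0.65), or 1.52-fold, with HOXD13 the member that differed most. The median gene at or above 1 CPM in at least 1 line was also higher in CHLA9, by 0.20 on the log2 scale over 13552 genes. With the median of the genes at or above 1 CPM in both lines, 0.22 over 11508 genes, set to 0, the log2 ratio of HOXD10-HOXD13 was 0.39. As a share of all HOX UMIs, which does not depend on that scaling, these 4 genes held 25.3% (24.99 to 25.5) in CHLA9 and 21.1% (20.6 to 21.6) in TC71.

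The front of the HOXD cluster went the other way. HOXD9, next to HOXD10, was 16.2 CPM (15.6 to 16.8) in CHLA9 and 15.2 CPM (14.2 to 16.2) in TC71, with an interval of the log2 ratio from -0.02 to 0.20. From HOXD8 on, TC71 was higher. HOXD8 stood at 10.3 CPM in CHLA9 and 31.7 CPM in TC71, a log2 ratio of -1.62 (-1.71 to -1.53), HOXD4 at 0.669 and 4.06 CPM, a ratio of -2.60 (-2.93 to -2.28), and HOXD3 at 0.554 and 1.46 CPM, a ratio of -1.39 (-1.83 to -0.96). HOXD1, the most anterior gene of the cluster, gave 1 UMI in CHLA9 and 57 UMIs in TC71, a plain ratio of 171 over that single UMI, with a counting interval from 29.5 to 6868. It stayed just under 1 CPM in TC71, at 0.977. Summed over HOXD1 to HOXD9, the level was 27.7 CPM (26.9 to 28.5) in CHLA9 and 53.4 CPM (51.5 to 55.3) in TC71. Levels thus fell from HOXD13 towards HOXD3 in CHLA9 apart from HOXD12, while in TC71 HOXD8 stood above HOXD11, HOXD10 and HOXD9.

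**Figure D1:**
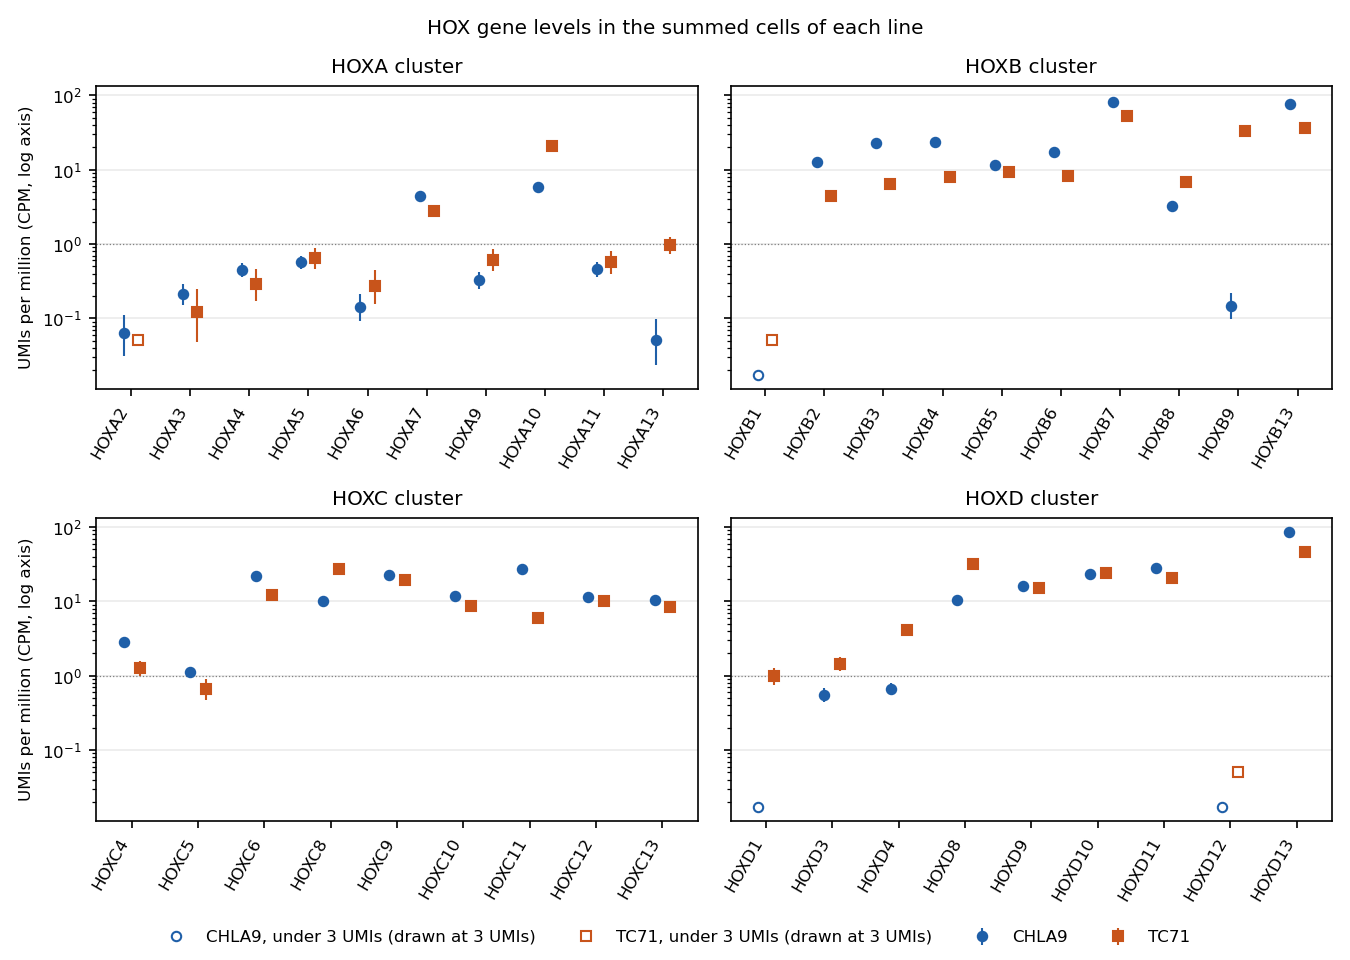
Level of 38 HOX genes in CHLA9 (circles) and TC71 (squares), in CPM on a log axis, with genes in cluster order from the anterior to the posterior end and exact 95% Poisson intervals as bars; open symbols are genes under 3 UMIs, drawn at 3 UMIs, and the dotted line is 1 CPM. HOXD13, HOXB7 and HOXB13 lie highest in CHLA9, HOXB9 is 33.2 CPM in TC71 and 0.149 CPM in CHLA9, and HOXA7 and HOXA10 are the HOXA genes above 1 CPM.

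To set the posterior HOXD genes against the other clusters, levels were summed by cluster. All HOX genes together came to 547 CPM (544 to 551) in CHLA9 and 432 CPM (427 to 437) in TC71. HOXB was the highest cluster in both lines, at 249 CPM in CHLA9 and 166 CPM in TC71, or 45.6% and 38.5% of all HOX UMIs. HOXD followed at 166 and 144 CPM, HOXC at 119 and 93.9 CPM, and HOXA was last at 12.7 and 27.3 CPM. HOXA was the cluster with a higher level in TC71, at a log2 ratio of -1.10 (-1.20 to -1.01). The ratio of the whole HOXD cluster, 0.20 (0.17 to 0.24), is no larger than the shift of the median gene, and it has no direction once that shift is taken off. The 4 posterior HOXD genes alone exceeded the whole HOXC cluster in CHLA9 and not in TC71, where they stood at 91.0 CPM beside 93.9 CPM with overlapping intervals.

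Cut by position, the posterior genes of all clusters, numbered 9 to 13, held 58.6% (58.3 to 58.9) of the HOX UMIs in CHLA9 and 58.2% (57.6 to 58.9) in TC71. The intervals of the shares overlapped, in spite of the differences between single genes. The anterior genes, numbered 1 to 3, were 36.3 CPM in CHLA9 and 13.6 CPM in TC71, of which HOXB gave 35.4 and 10.8 CPM. By paralog number, group 13 was the highest in both, at 174 CPM in CHLA9 and 92.5 CPM in TC71. Group 8 was 23.6 CPM in CHLA9 and 65.7 CPM in TC71. Its members HOXB8, HOXC8 and HOXD8, which lie on 3 chromosomes, were each higher in TC71.

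In CHLA9 24 of the 39 HOX genes (61.5%) were at or above 1 CPM, beside 37.1% of all genes, and in TC71 26 of 39 (66.7%), beside 37.6%. 23 genes passed in both lines, HOXC5 in CHLA9 alone, and HOXB9, HOXD3 and HOXD4 in TC71 alone. Of all 33538 genes, 12448 passed in CHLA9, 12612 in TC71 and 11508 in both. 12 HOX genes passed in neither: HOXB1, HOXD1, HOXD12 and 9 of the HOXA cluster. The share of HOX genes above this level exceeded that of all genes in both lines.

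Of the 27 HOX genes at or above 1 CPM in at least 1 line, 7 (25.9%) were at least 2-fold higher in CHLA9, beside 19.8% of 13552 genes, and 7 (25.9%) were at least 2-fold higher in TC71, beside 13.9%. With the median gene set to 0 the counts were 4 and 7, beside 15.1% and 17.0%. The median log2 ratio of the 27 was 0.43, with 19 higher in CHLA9 and 8 in TC71. HOXC12 and HOXD9 were among the 19 but changed sign when the median gene was set to 0. The genes higher in CHLA9 were of HOXB and HOXC, namely HOXB2, HOXB3, HOXB4, HOXB6, HOXB13, HOXC4 and HOXC11, while those higher in TC71 came from all 4 clusters, namely HOXA10, HOXB8, HOXB9, HOXC8, HOXD3, HOXD4 and HOXD8.

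**Figure D2:**
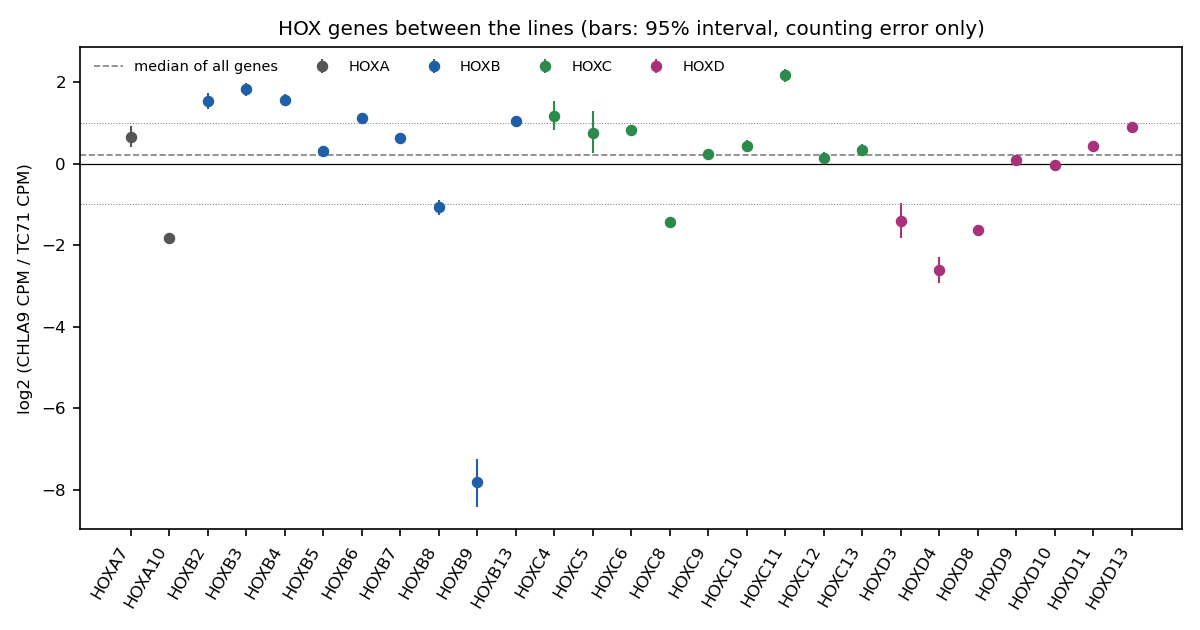
log2 ratio of the level in CHLA9 to that in TC71 for the 27 HOX genes at or above 1 CPM in at least 1 line. Genes are coloured by cluster, with exact 95% intervals for counting error. Dotted lines mark 2-fold, and the dashed line is the median of all genes at or above 1 CPM in at least 1 line, 0.20. HOXB9 lies lowest at -7.80 and HOXC11 highest at 2.16, and HOXD10 and HOXD9 sit near 0.

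HOXB9, a posterior gene with a role in the thorax and the mammary gland, differed most between the lines. CHLA9 gave 26 UMIs, or 0.149 CPM (0.0971 to 0.218), in 25 cells, and TC71 1937 UMIs, or 33.2 CPM (31.7 to 34.7), in 980 cells. The level in TC71 was 223-fold higher (152 to 343). The gene lies at chr17:48621156-48626358 within the annotated span of HOXB7, chr17:48607232-48633572, but its exons share no bases with another HOX gene on the same strand. HOXB8, next to it, was also higher in TC71 but by far less, and HOXB7 was higher in CHLA9. HOXB8 was 3.26 CPM in CHLA9 and 6.84 CPM in TC71, a log2 ratio of -1.07 (-1.25 to -0.88), and HOXB7 was 81.9 CPM (80.5 to 83.2) and 53.2 CPM (51.4 to 55.1), a ratio of 0.62 (0.57 to 0.68). HOXB7 was the highest HOX gene in TC71 and the second in CHLA9.

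HOXB13, at the posterior end of the cluster and known from the prostate and the hindgut, was 76.2 CPM (74.9 to 77.5) in CHLA9 and 36.7 CPM (35.2 to 38.3) in TC71, a log2 ratio of 1.05 (0.99 to 1.12). HOXB13 and HOXD13, paralogs on different chromosomes, were therefore both high in each line and both higher in CHLA9. At the anterior end, HOXB2, HOXB3 and HOXB4, known from hindbrain and blood stem cells, were higher in CHLA9. HOXB2 was 12.6 and 4.37 CPM (1.53 on the log2 scale, 1.34 to 1.72), HOXB3 22.8 and 6.44 CPM (1.82, 1.67 to 1.98) and HOXB4 23.4 and 7.93 CPM (1.56, 1.42 to 1.70). HOXB5 and HOXB6 lie between them and HOXB7. HOXB5 came to 11.6 and 9.43 CPM and HOXB6 to 17.5 and 8.12 CPM, ratios of 0.30 and 1.11. The interval for HOXB6 was 0.97 to 1.25. HOXB6 shares 16.6% of its annotated exon bases with HOXB3, and HOXB3 shares 6.42% with HOXB4 and HOXB6, so their counts are uncertain. HOXB1 gave 0 UMIs in both lines and was not detectable at this depth.

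HOXC genes, known from the trunk and the hind limb, were spread more evenly. HOXC11 differed most, at 27.0 CPM (26.2 to 27.8) in CHLA9 and 6.03 CPM (5.42 to 6.70) in TC71, a log2 ratio of 2.16 (2.01 to 2.32). HOXC8 went the other way, at 10.0 CPM in CHLA9 and 27.1 CPM in TC71, a ratio of -1.44 (-1.54 to -1.34). Genes of this cluster thus differed between the lines in opposite directions. HOXC9 was 22.7 CPM in CHLA9 and 19.3 CPM in TC71, HOXC10 was 11.7 and 8.64 CPM, HOXC12 was 11.3 and 10.2 CPM, and HOXC13 was 10.5 and 8.31 CPM. Their log2 ratios ran from 0.14 to 0.44, near the shift of the median gene. HOXC6 was 22.0 and 12.4 CPM, HOXC4 was 2.85 and 1.27 CPM, and HOXC5 was 1.13 and 0.668 CPM. HOXC4 shares 17.5% of its annotated exon bases with HOXC6, HOXC6 shares 16.1% with HOXC4 and HOXC9, and HOXC5 shares 37.9% with an unnamed gene of the locus, so their counts are uncertain.

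In the HOXA cluster only HOXA7 and HOXA10 reached 1 CPM, in both lines. HOXA10, known from the uterus and the hind limb, was 5.87 CPM (5.52 to 6.24) in CHLA9 and 20.8 CPM (19.7 to 22.0) in TC71, a log2 ratio of -1.83 (-1.95 to -1.70). HOXA7 was 4.45 CPM in CHLA9 and 2.81 CPM in TC71. The other 9 ranged from 0.0514 to 0.566 CPM in CHLA9 and from 0 to 0.960 CPM in TC71. HOXA13, the paralog of HOXB13 and HOXD13, was the lowest HOXA gene in CHLA9, at 9 UMIs, and had 56 UMIs in TC71, so the high level of group 13 did not extend to this cluster.

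Ordered by level, the first 3 HOX genes of CHLA9 were HOXD13, HOXB7 and HOXB13, with no overlap of their intervals, and together they held 44.8% of its HOX UMIs. Below them HOXD11 and HOXC11 had overlapping intervals, as did HOXB4, HOXD10, HOXB3, HOXC9 and HOXC6. In TC71 the order was HOXB7, HOXD13, HOXB13, HOXB9 and HOXD8, the last 2 with overlapping intervals, and the first 3 held 31.6%. Among all 33538 genes HOXD13 ranked 2012 in CHLA9 and 3324 in TC71, so that no HOX gene was among the most abundant RNAs.

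To ask how many cells hold these RNAs, each cell was thinned at random to 5000 UMIs, since a deeper cell shows more genes. At full depth a UMI of HOXD10 to HOXD13 was seen in 96.4% of the cells in CHLA9 and 89.8% in TC71, with medians of 5 and 3 UMIs per cell. After thinning the shares were 48.1% (46.6 to 49.5) and 36.9% (34.6 to 39.2). If every cell had held these RNAs at the same level, a Poisson draw with the same mean would have given 49.8% in CHLA9 and 37.0% in TC71. The draw lay just above the interval in CHLA9 and inside it in TC71. Cells were not typed, so no cells that should lack HOX genes were set apart. The share that free RNA in the droplets gives could therefore not be measured.

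At full depth HOXD13 was seen in 89.0% of CHLA9 cells and 73.6% of TC71 cells, and after thinning in 33.6% (32.2 to 35.0) and 20.9% (19.0 to 22.9), beside Poisson shares of 34.8% and 20.8%. HOXB7 was at 32.5% after thinning in CHLA9 and 23.7% in TC71. HOXD11 was at 13.2% and 10.4%, and HOXD10 at 10.7% and 11.3%. Of the 36 HOX genes with at least 3 UMIs in a line, the Poisson share lay inside the interval of the measured share for 35 in CHLA9 and for 36 in TC71. The exception was HOXB13 in CHLA9, with 29.9% (28.5 to 31.2) of cells beside 31.7%. Summed by cluster, where counts are less sparse, the Poisson share lay above the interval for HOXC (43.6%, interval 39.8 to 42.7) and HOXD (56.5%, 53.0 to 55.9) in CHLA9. In TC71 it lay above the interval for HOXB (57.4%, 52.1 to 56.8). For the other clusters of each line it lay inside. HOXB9 was found in 0.553% of CHLA9 cells and 56.7% of TC71 cells at full depth, and in 0.0663% and 14.8% after thinning.

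**Figure D3:**
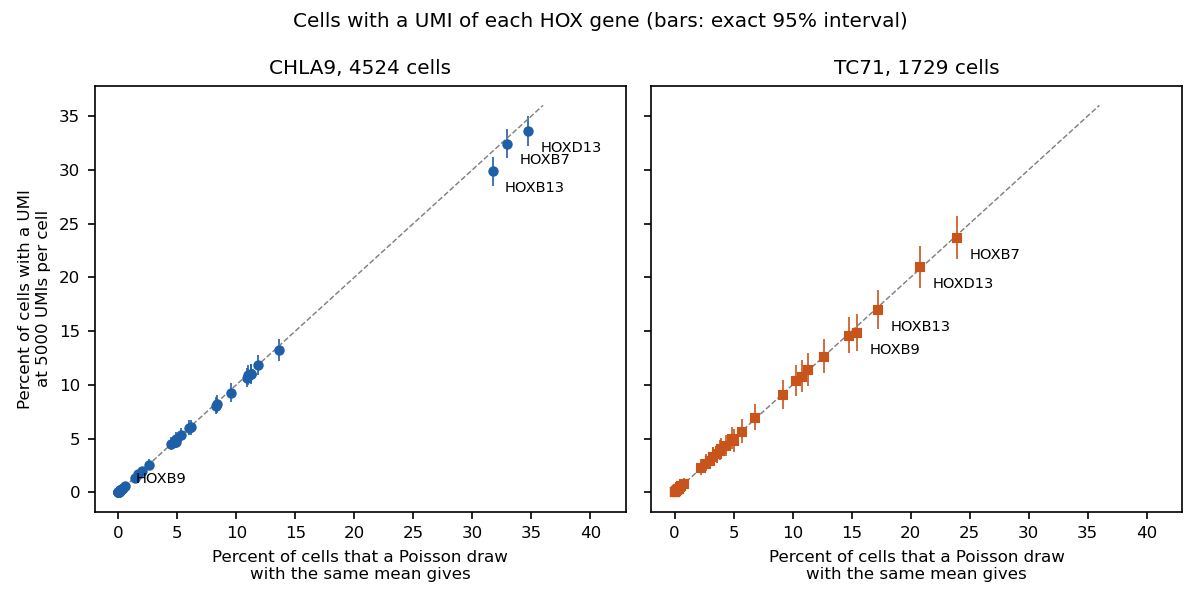
Percent of cells with a UMI of each HOX gene at 5000 UMIs per cell (y axis, exact 95% intervals) against the percent that a Poisson draw with the same mean gives (x axis), in CHLA9 and TC71; the dashed line marks equal values. The genes lie along the line in both panels, and HOXB13 in CHLA9 is below it at 29.9%.

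The spread over cells was compared with that of other genes. The variance over the mean of the thinned counts had a median of 1.04 (0.989 to 1.15 over 20 HOX genes) in CHLA9, beside 1.02 over 7989 genes in the same range of levels, and of 1.03 (0.963 to 1.11 over 21) in TC71, beside 1.01 over 6860. The 75th percentile of all genes was 1.04 in both lines and the 95th 1.09, so that the HOX median lay just above the former in CHLA9 and the highest HOX values above the latter in both. A few cells held many copies: the highest count in 1 cell was 28 UMIs of HOXB13 and 26 of HOXD13 in CHLA9, and 8 and 10 in TC71. A cell had UMIs of a median of 10 HOX genes (range 1 to 24) in CHLA9 and 9 (range 0 to 21) in TC71 at full depth. After thinning the median was 2 in both lines, and 7.91% of CHLA9 cells and 12.03% of TC71 cells showed none. Within 1 library, Spearman's rho across cells at 10000 UMIs between 2 HOX genes of the same cluster had a median of 0.0176 over 46 pairs in CHLA9 and 0.00760 in TC71, and between genes of different clusters 0.00394 and 0.00468 over 125 pairs. In counts this sparse these values are a description of near absent correlation and not a finding.

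As the cells of a culture differ in the cell cycle, HOX levels were also summed by phase, called from the RNA of S and G2M genes, none of which is a HOX gene. CHLA9 had 1023 cells called G1, 1731 S and 1770 G2M, and TC71 216, 850 and 663. Median UMIs per cell went up across these phases, from 29240 to 40896 in CHLA9 and from 28482.5 to 37023 in TC71, and levels are given in CPM to allow for this. All HOX genes together were 499 CPM in G1, 503 in S and 605 in G2M in CHLA9, and 391, 384 and 497 CPM in TC71. The level in G2M cells was thus the highest in both lines.

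HOXD10 to HOXD13 were 135 CPM (131 to 139) in G1, 130 CPM (127 to 133) in S and 146 CPM (144 to 149) in G2M in CHLA9, and 84.8 CPM (77.6 to 92.4), 87.1 CPM (83.7 to 90.6) and 97.1 CPM (93.2 to 101) in TC71. The log2 ratio of G1 to G2M was -0.11 (-0.17 to -0.06) in CHLA9 and -0.20 (-0.34 to -0.06) in TC71. The same ratio for HOXB was -0.32 (-0.36 to -0.28) in CHLA9 and -0.55 (-0.66 to -0.44) in TC71, and for HOXC -0.45 (-0.51 to -0.39) and -0.31 (-0.44 to -0.17). The interval of HOXD10-HOXD13 lay nearer to 0 than those of both clusters in CHLA9, while in TC71 it overlapped that of HOXC. Within the HOXD genes, HOXD11 was 26.9 CPM in G1 and 27.1 CPM in G2M in CHLA9, and 20.7 and 20.6 CPM in TC71. HOXD13 accounted for most of the difference, at 85.4 and 96.2 CPM in CHLA9 and 42.1 and 51.7 CPM in TC71. HOXD1-HOXD9 was 25.9 and 26.9 CPM in CHLA9 and 56.7 and 56.4 CPM in TC71.

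**Figure D4:**
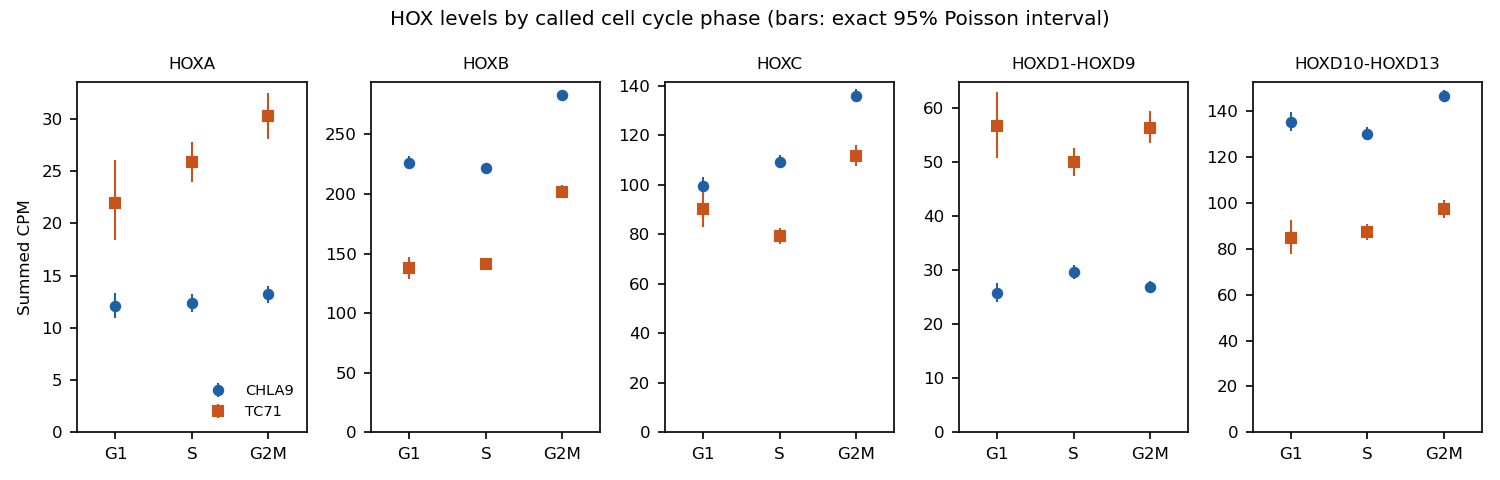
Summed level in CPM (y axis from 0, a scale of its own in each panel) of HOXA, HOXB, HOXC, HOXD1-HOXD9 and HOXD10-HOXD13 in cells called G1, S and G2M, for CHLA9 (circles) and TC71 (squares) with exact 95% Poisson intervals. HOXB is 283 CPM in G2M cells and 226 CPM in G1 cells of CHLA9, while HOXD1-HOXD9 is nearly level.

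By a limit of 25%, chosen after the values were seen, 13 of the 24 HOX genes at or above 1 CPM in CHLA9 (54.2%) were at least 25% higher in G2M than in G1 cells, beside 15.5% of all such genes, and 1 was higher in G1, beside 10.7%. In TC71 12 of 26 (46.2%) were higher in G2M, beside 28.2%, and 1 was higher in G1, beside 6.74%. The 8 genes found in both lines were HOXB5, HOXB6, HOXB7, HOXB13, HOXC4, HOXC6, HOXC11 and HOXC12, which is 61.5% of the CHLA9 list and 66.7% of the TC71 list. The same overlap was not counted over all genes, so whether these shares are particular to HOX genes was not tested. No HOXD gene was on either list, but HOXD13 in TC71 came near the limit, at a log2 ratio of -0.30 (-0.49 to -0.10). Under another phase scoring, given below, HOXD8 passed it in TC71. Some rest on few UMIs: the interval of the ratio held 0 for 1 of the 13 in CHLA9, HOXC5, and for 6 of the 12 in TC71, namely HOXB4, HOXB6, HOXB8, HOXC4, HOXC6 and HOXC11. The median log2 ratio of G1 to G2M was -0.37 over the HOX genes and -0.02 over all genes in CHLA9, and -0.27 and -0.13 in TC71.

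HOXB5 showed the widest difference of those named with values here, from 9.33 CPM in G1 to 14.98 CPM in G2M cells in CHLA9 and from 6.28 to 12.6 CPM in TC71. HOXB13 was lowest in S, at 74.0 CPM in G1, 51.8 in S and 97.8 in G2M in CHLA9, and 35.2, 27.1 and 48.0 CPM in TC71. HOXB7 was lowest in G1, at 63.3, 82.3 and 89.3 CPM in CHLA9 and 41.3, 45.5 and 65.0 CPM in TC71. HOXB4, next to HOXB5, was the gene higher in G1 in CHLA9, at 28.3 CPM in G1, 26.5 in S and 18.7 in G2M, a log2 ratio of 0.60 (0.48 to 0.72). In TC71 HOXB4 was 5.95, 8.06 and 8.29 CPM, with an interval from -1.03 to 0.04 for that ratio. HOXD9 was the gene higher in G1 in TC71, at 17.7 and 13.9 CPM, and its interval, 0.01 to 0.66, came close to 0.

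Other RNAs of the HOX loci differed between the lines as well. Of 22 noncoding, antisense or small genes listed, 18 were in the gene set, and 9 were at or above 1 CPM in CHLA9 and 7 in TC71, beside 37.1% and 37.6% of all genes. Of the 10 at or above 1 CPM in at least 1 line, 5 were at least 2-fold higher in CHLA9 and 1 in TC71, beside 19.8% and 13.9% of all genes. The strand setting of the counting is not given in the sources used here, so antisense RNAs and the genes they overlap are uncertain. PRAC1 and PRAC2, small genes beside HOXB13, were high. PRAC1 stood at 120 CPM in CHLA9 and 181 CPM in TC71. PRAC2 was 88.0 and 38.0 CPM, so the neighbours of HOXB13 differed in opposite directions. HAGLR, an RNA transcribed across the anterior HOXD genes on the other strand, gave 12 UMIs in CHLA9 and 435 in TC71, at 0.0686 and 7.45 CPM, a log2 ratio of -6.76 (-7.73 to -5.94). Its level was in the direction of HOXD1, HOXD3, HOXD4 and HOXD8. HAGLROS, on the strand opposite HAGLR, went the other way, at 1.87 and 0.171 CPM. HOXD-AS2 was 11.6 and 18.4 CPM, and HOTAIR, a long noncoding RNA of the HOXC cluster next to HOXC11, was 8.60 and 3.65 CPM, a ratio of 1.24 (1.03 to 1.45).

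Genes that flank the clusters were also measured. Of 12, 10 were at or above 1 CPM in each line, beside 37.1% and 37.6% of all genes. Of the 10, 2 were at least 2-fold higher in CHLA9, which is near the 19.8% of all genes, and 0 in TC71, beside 13.9%. TTLL6, beyond HOXB13, was 26.6 CPM in CHLA9 and 1.15 CPM in TC71, a log2 ratio of 4.54 (4.19 to 4.91), and SKAP2, beside the HOXA cluster, was 13.5 and 1.49 CPM. LNPK and MTX2, on either side of the HOXD cluster, were 49.5 and 41.1 CPM and 53.6 and 55.3 CPM, log2 ratios of 0.27 and -0.05. The ratio of LNPK was near the shift of the median gene, and that of MTX2 was below it.

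Homeodomain cofactors of the TALE class, with which HOX proteins bind DNA, were counted next. Of 9, 8 were at or above 1 CPM in at least 1 line, beside 13552 of all 33538 genes. Of these 8, 5 were at least 2-fold higher in CHLA9 and 1 in TC71, beside 19.8% and 13.9% of the 13552. MEIS1 was 70.4 CPM in CHLA9 and 8.77 CPM in TC71, PBX2 53.7 and 25.3 CPM, and MEIS2 34.0 and 33.5 CPM. PKNOX2, at 0.309 and 2.84 CPM, was the one higher in TC71. All 21 chromatin regulators of HOX genes listed were at or above 1 CPM in both lines, beside 11508 of all 33538 genes. Of the 21, 8 were at least 2-fold higher in CHLA9 and 1 in TC71, beside the same 19.8% and 13.9%. EZH2, the methyltransferase of Polycomb repressive complex 2, which silences HOX genes, was 442 and 95.6 CPM, KMT2A, which keeps them active, 216 and 135 CPM, and CBX7, the one higher in TC71, 1.46 and 4.76 CPM. Of 11 genes of upstream signals, 3 were at or above 1 CPM in CHLA9 and 4 in TC71, no larger a share than the 37.1% and 37.6% of all genes. The retinoic acid receptor RARA was 34.5 and 5.06 CPM, and CDX2, a regulator of posterior HOX genes in the embryo, gave 1 UMI in CHLA9 and 95 UMIs in TC71.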

How the data were processed

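The authors counted UMIs per gene and barcode with Cell Ranger 3.1.0 against hg38, per the labels, and deposited raw counts for 33538 genes, with no normalization; the annotation release is not given in the sources used here. CHLA9 had 1 library of 174975302 UMIs in kept cells and TC71 1 library of 58355173, so that levels in TC71 carry wider intervals. The libraries shared 16 barcodes, 3 of them among kept cells, and these were left in. Doublets were not removed; Scrublet, run through scanpy 1.11.5, marked 7.74% of CHLA9 and 0.694% of TC71 cells, and leaving out the highest scores was an alternative.

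Counts were summed over kept cells and scaled to CPM. For calls by fold, a line under 3 UMIs was set to 3 UMIs, the floor, while a plain ratio over 1 UMI is printed with its counting interval. Thinning drew UMIs without replacement with a seed of 1. Phases were called with CellCycleScoring of Seurat 5.3.0 in R 4.3.3, per library, with genes found in at least 10 cells. numpy 2.4.6, scipy 1.17.1, pandas 2.3.3 and matplotlib 3.10.9 were used. Gene positions are from GENCODE 44 on GRCh38, by gene identifier, and promoter windows from RefSeq on GRCh38.p14. The counting of calls was tested on simulated data for the comparison of the lines. Over 12448 genes, 100% of 200 genes changed 4-fold were recovered at the 2-fold limit, and ratio intervals covered 95.1% of true values. The simulated counts were Poisson draws, so the calls of genes near 2-fold and variation between libraries were not tested.

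HOX genes at or above 1 CPM in one line were named with their values. Of each list of other genes, those with at least 10 CPM in one line or a 2-fold ratio could be named. Values of some genes are not reported here. The genes and lists were chosen with earlier results of these data known. Alternatives covered the cell filters, doublets, scaling, depth, thresholds and phase scoring.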

Additional observations from a re-analysis of the deposited data

Results flagged for a closer look

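Barcodes under 5000 UMIs, which no level above uses, also held HOX RNA. HOXD10-HOXD13 came to 69.3 CPM (51.5 to 91.4), from 50 UMIs in 277 barcodes, in CHLA9 and 85.7 CPM (79.7 to 92.0), from 761 UMIs in 5869 barcodes, in TC71. Both were above the floor of 3 UMIs. In CHLA9 the level was under the 138 CPM (137 to 140) of the kept cells, with no overlap of the intervals, and in TC71 it was near the 91.0 CPM of the kept cells. What these barcodes hold besides was not tested.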

How the results depend on the processing

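Of the 27 HOX genes recomputed, 3 changed direction between the lines under some alternative, HOXC12, HOXD9 and HOXD10, all with ratios near 0, and HOXD10-HOXD13 as a group did not. No paired analysis was possible because neither line has a second library, so no replicate could be left out either. Values that moved beyond their counting interval follow, and the cause was not tested unless the setting itself shows it. Without mitochondrial and ribosomal protein genes in the total, which raises every level, HOXD10-HOXD13 was 183 CPM in CHLA9 and 128 in TC71 (log2 ratio 0.52), HOXA 16.8 and 38.4, HOXB 331 and 234, HOXC 158 and 132, and HOXD1-HOXD9 36.8 and 75.2. Thinned to 5000 UMIs, HOXA was 11.6, HOXC 114.5 and HOXD1-HOXD9 28.6 CPM in CHLA9, and HOXB 171 CPM in TC71. With all deposited barcodes, TC71 had 24.98 CPM of HOXA, 157 of HOXB and 86.4 of HOXC, and 21.8% of HOX UMIs were in HOXD10-HOXD13. With every cell weighed the same, CHLA9 had 247 CPM of HOXB and 116 of HOXC. A minimum of 10 CPM left 13 HOX genes in TC71, and a 4-fold limit left 1 gene higher in CHLA9, HOXC11, and 2 in TC71, HOXB9 and HOXD4. Cells with a HOXD10-HOXD13 UMI were 70.8% of CHLA9 and 56.5% of TC71 at 10000 UMIs, 96.4% and 89.8% with no thinning, and 33.2% of TC71 with no filter on genes or mitochondrial percent. Setting the median gene to 0 and an updated list of cell cycle genes were chosen after seeing the data: the first gave a log2 ratio of 0.39 for HOXD10-HOXD13 and 4 genes higher in CHLA9. Scoring phases on all genes called 445 TC71 cells G1 in place of 216, with HOXB at 137 CPM in G1 and 197 CPM in G2M and the ratio of HOXD9 at 0.11. HOXD8 then passed the 25% limit in TC71, at 28.4 CPM in G1 and 36.4 CPM in G2M. With at most 10% mitochondrial UMIs, the interval of the ratio of HOXD10-HOXD13 between TC71 phases, -0.30 to 0.01, held 0.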
